A study of Homo sapiens with 16 samples.

Results

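Fibroblast growth factor (FGF) receptors and ligands were followed across 2 triple-negative breast cancer cell lines sorted for Wnt reporter activity. The genes were the receptors *FGFR1*, *FGFR2*, *FGFR3*, *FGFR4* and *FGFRL1*, the ligands *FGF1*, *FGF2* and *FGF5*, and the FGF carrier *FGFBP1*, 9 of the 57820 genes in the count tables, matched by symbol to their Ensembl identifiers. All 9 passed the filter on low counts in both serum conditions (16069 protein-coding genes tested under low serum, 15414 under standard serum). In standard serum *FGFR2* and *FGF2* passed it through the MDA-MB-436 libraries, since MDA-MB-231 held 0 or 1 counts per library.

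RNA was sequenced from MDA-MB-231 and MDA-MB-436, established mesenchymal lines, both stably transfected with the 7TGP plasmid and selected with puromycin. 7TGP places eGFP behind repeated TCF-binding sites, so that Wnt/β-catenin activity makes a cell fluorescent. Each line was sorted repeatedly into reporter-positive (7TGP-POS) and reporter-negative (7TGP-NEG) populations, so the controls carry the plasmid too, and each population is a sorted pool of 1 transfected line. The 8 groups were the 4 populations, each in low serum (0.5% FBS, day 3) and in standard serum (10% FBS, day 6), with 2 libraries per group, described as biological duplicates in the study's methods. By the study's methods, low-serum libraries were made by ribosomal RNA depletion and standard-serum libraries by poly(A) selection, on different instruments. The labels name the poly(A) kit for all samples, so the kit of the low-serum libraries is not settled here. Serum, day, run and any difference of library kit cannot be told apart, and every test was made within a serum condition. The methods name different culture media for the 2 lines whereas the labels name DMEM for both, so whether the media differed is not settled here.

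The 16 libraries held 27918418 to 46044073 counts. The lines kept their identity markers: *CDKN2A* lay between 0 and 0.267 CPM (counts scaled to the total of the library) in the 8 MDA-MB-231 libraries and between 66.5 and 120 CPM in the 8 MDA-MB-436 libraries. The mesenchymal marker *VIM* was at 659 CPM or above in every library, while *CDH1*, which defines epithelial cells, did not exceed 0.401 CPM, *ESR1* 0.697 CPM and *PGR* 0.98 CPM. Other markers of the mesenchymal and epithelial lists went against this: the epithelial keratins *KRT8* and *KRT18* stood at 258 to 731 CPM and 116 to 372 CPM, *CLDN4* reached 62.4 CPM in MDA-MB-231, and the mesenchymal *SNAI2* was at 1.15 to 3.67 CPM in MDA-MB-436 and *SPARC* at 0.497 to 1.76 CPM in MDA-MB-231. The HER2 gene *ERBB2*, listed with *ESR1* and *PGR*, was not near 0. It stood at 69.2 to 116 CPM in MDA-MB-231 and 55.9 to 75.8 CPM in MDA-MB-436. The leukocyte gene *PTPRC* reached 9.31 CPM in MDA-MB-231 and 0.349 CPM in MDA-MB-436. Of 8 canonical Wnt target genes, 4 rose and 0 fell in MDA-MB-231 7TGP-POS in low serum and 1 rose and 0 fell in standard serum, against 2 and 1 that rose in MDA-MB-436 7TGP-POS and 1 that fell in each condition. At the adjusted p under 0.05 used for these counts (edgeR), 38.9% and 33.0% of all genes passed in MDA-MB-231, in low and standard serum. The MDA-MB-436 shares were 52.0% and 49.5%. *NKD1*, *NOTUM* and *APCDD1* did not exceed 0.167 CPM in MDA-MB-231. *RNF43*, the gene that fell in standard-serum MDA-MB-436, held 1 to 13 counts per library. In the standard-serum MDA-MB-436 7TGP-POS group the log ratio of the 2 libraries followed transcript GC content (r = -0.606 across genes, against -0.128 to 0.251 in the other 7 groups), which bears on *FGFR3*, *FGFR4* and *FGFRL1*, whose longest transcripts are 62.2% to 63.5% G and C, and on *FGF2* and *FGF5* at 37.6% and 36.6%.

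FGF ligands bind receptor tyrosine kinases together with heparan sulfate chains on the cell surface, and the receptors signal through the adaptor FRS2 to the RAS, ERK and PI3K pathways. FGFR1 to FGFR4 carry the kinase, whereas FGFRL1 binds FGFs but lacks the kinase domain. Sprouty proteins and dual-specificity phosphatases are induced by ERK and dampen the signal. In bulk RNA, fewer cells that express a gene and less RNA per cell cannot be told apart.

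Promoter windows are shown for those genes whose reporter change passed the test in the same direction in both serum conditions of at least 1 line, *FGFR1* excepted. They are the RefSeq windows from 250 bases before to 50 bases after an annotated start (GRCh38.p14), read 5′ to 3′ on the gene's strand, the first listed start where a gene has several. Capitals mark the TCF/LEF core ATCAAAG or its reverse complement CTTTGAT, the motif class that drives the 7TGP reporter.

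FGFRL1, chr4:1012214-1012513, plus strand: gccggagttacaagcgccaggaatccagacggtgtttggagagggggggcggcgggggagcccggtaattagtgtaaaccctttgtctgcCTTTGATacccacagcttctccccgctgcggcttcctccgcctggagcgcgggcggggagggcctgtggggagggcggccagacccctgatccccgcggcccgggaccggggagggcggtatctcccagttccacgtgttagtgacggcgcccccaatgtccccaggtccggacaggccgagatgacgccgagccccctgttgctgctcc
FGFR3, chr4:1793043-1793342, plus strand: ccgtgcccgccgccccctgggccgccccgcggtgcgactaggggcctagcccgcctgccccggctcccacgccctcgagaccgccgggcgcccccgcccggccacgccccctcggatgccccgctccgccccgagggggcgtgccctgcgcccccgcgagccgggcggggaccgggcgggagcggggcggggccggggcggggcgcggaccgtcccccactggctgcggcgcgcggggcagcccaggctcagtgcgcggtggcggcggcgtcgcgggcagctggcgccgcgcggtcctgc
FGFR2, chr10:121598395-121598694, minus strand: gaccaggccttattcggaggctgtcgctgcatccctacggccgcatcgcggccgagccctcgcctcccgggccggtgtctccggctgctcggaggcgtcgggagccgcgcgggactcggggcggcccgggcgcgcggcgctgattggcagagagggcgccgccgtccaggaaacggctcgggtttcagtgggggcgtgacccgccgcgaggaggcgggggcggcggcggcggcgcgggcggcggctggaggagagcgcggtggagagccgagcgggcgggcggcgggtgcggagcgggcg
FGF5, chr4:80266338-80266637, plus strand: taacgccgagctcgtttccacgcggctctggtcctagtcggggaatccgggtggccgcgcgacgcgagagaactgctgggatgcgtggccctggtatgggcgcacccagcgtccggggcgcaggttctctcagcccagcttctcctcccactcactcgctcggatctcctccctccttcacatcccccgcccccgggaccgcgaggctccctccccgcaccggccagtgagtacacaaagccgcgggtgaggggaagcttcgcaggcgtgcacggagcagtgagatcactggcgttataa

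The *FGFRL1* window held the core once, on the opposite strand, starting 160 bases before the annotated start. The other 16 windows of the genes in the promoter table (5 for *FGFR2*, 1 for *FGFR3*, 2 for *FGFR4*, 4 for *FGF1*, 1 for *FGF2*, 2 for *FGF5* and 1 for *FGFBP1*) did not hold these letters. Of 34943 windows of this length in the table, 918 (2.63%) held the core on either strand. The match is a description of letters and does not show a bound site.

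The first question was how each gene differed between reporter-positive and reporter-negative cells of a line. Genes with an adjusted p under 0.05 and a log2 fold change of at least 1 in size were called differentially expressed genes (DEGs), by the quasi-likelihood test of edgeR, adjusted by the Benjamini-Hochberg method over all genes tested. The 2 libraries of a group came from 1 sorted population. The adjusted p thus covers the spread between duplicates, not between independently sorted populations. The 9 genes were chosen with earlier results of these data known. Shares over all genes are therefore given for scale and do not test the 9 genes as a set. In MDA-MB-231 in low serum, 1 of the 9 genes was a DEG (*FGFR3*, lower), against 5.90% of all genes, and 3 passed the adjusted p alone, against 38.9%. In MDA-MB-231 in standard serum, 1 was a DEG (*FGF1*, higher), against 7.69%, and 3 passed the adjusted p, against 33.0%. In MDA-MB-436 in low serum, 4 were DEGs (*FGFR2* and *FGF5* lower, *FGFR3* and *FGF1* higher), against 10.5% of all genes, and 7 passed the adjusted p, against 52.0%. In MDA-MB-436 in standard serum, 1 was a DEG (*FGF5*, lower), against 12.5%, and 5 passed the adjusted p, against 49.5%. The change itself differed between the lines for 6 of 9 genes in low serum (45.7% of all genes) and for 2 of 9 in standard serum (41.2%), by the interaction term at an adjusted p under 0.05.

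**Figure D1:**
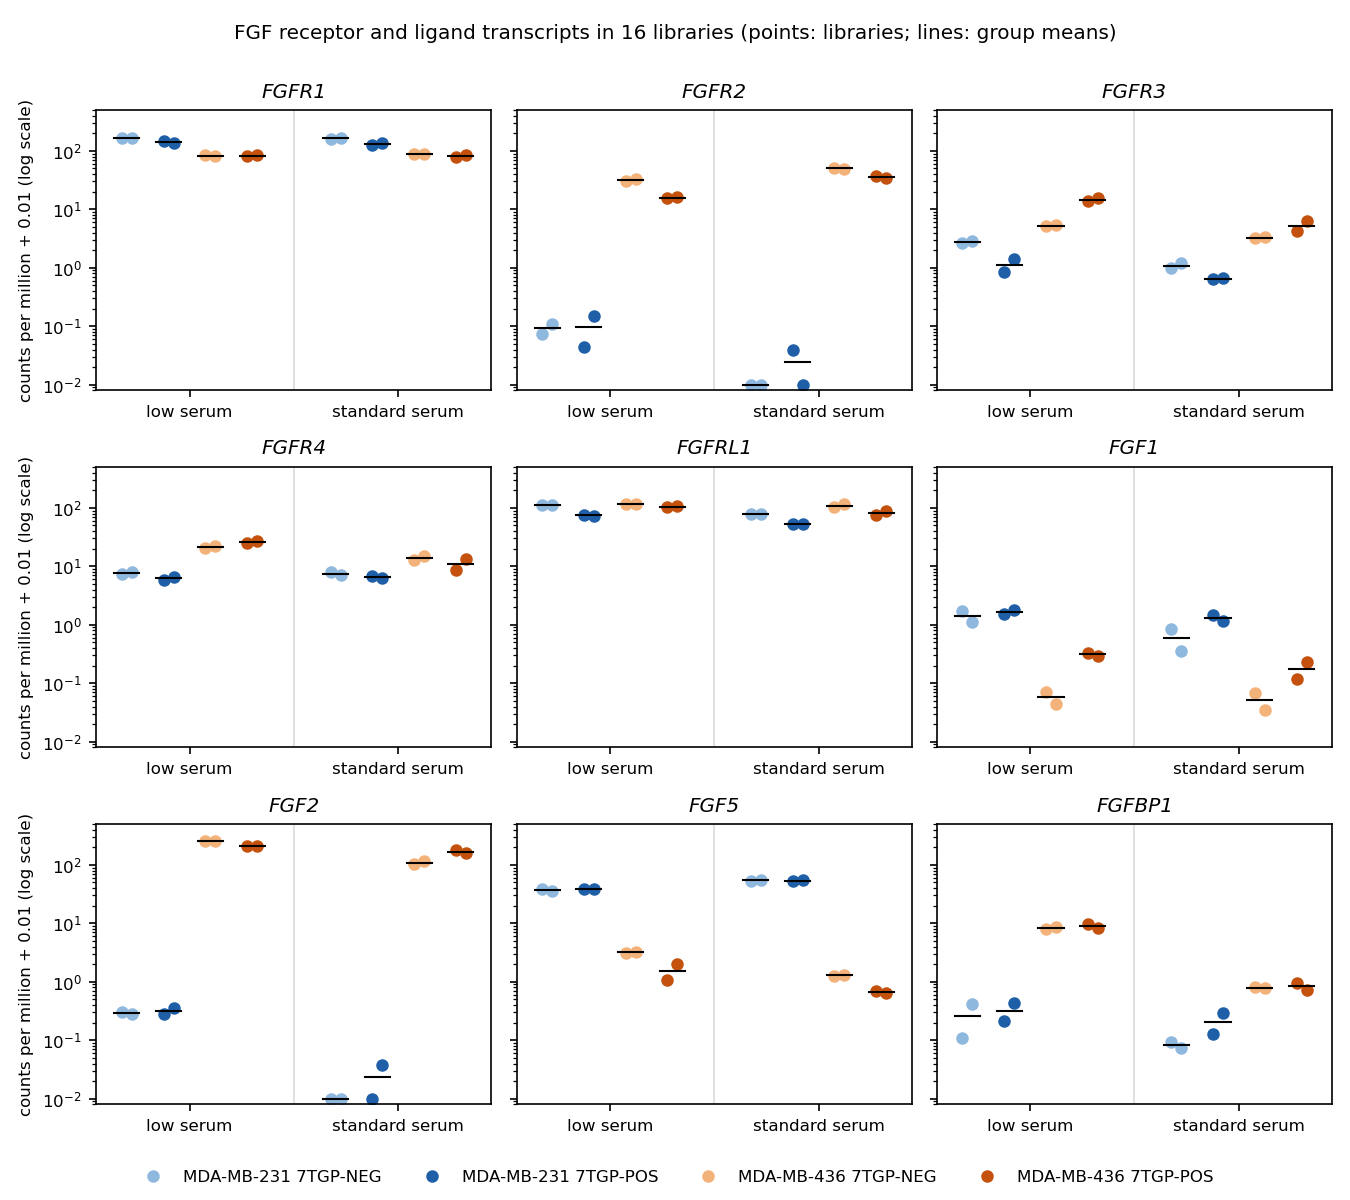
Level of each gene in the 16 libraries, as CPM plus 0.01 on a log axis, by line, reporter state and serum; points are libraries and lines are group means. *FGFR2* and *FGF2* lie near the bottom of the axis in MDA-MB-231 and between 15.6 and 259 CPM in MDA-MB-436, whereas *FGF5* and *FGF1* are higher in MDA-MB-231.

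*FGFR1* (ENSG00000077782, chromosome 8, 38257733 to 38326352, minus strand, hg19) encodes the receptor most often linked to mesenchymal cells. In MDA-MB-231 in low serum it was at 167 and 168 CPM in 7TGP-NEG and at 148 and 138 CPM in 7TGP-POS. In standard serum the values were 162 and 164 CPM in 7TGP-NEG and 124 and 136 CPM in 7TGP-POS. Both 7TGP-POS libraries were thus the lower ones in each condition, with no overlap, and the log2 fold change was -0.22 (SE 0.0491, adjusted p = 0.000249) in low serum and -0.39 (SE 0.0712, adjusted p = 0.000333) in standard serum. In MDA-MB-436 all 8 libraries lay between 80.01 and 88.8 CPM, and the log2 fold changes of -0.01 (SE 0.0516) and -0.15 (SE 0.0719) had adjusted p of 0.871 and 0.0856. The MDA-MB-231 change minus the MDA-MB-436 change was -0.21 (adjusted p = 0.0131) in low serum and -0.23 (adjusted p = 0.0775) in standard serum. The low-serum difference did not pass in 10 of 17 alternative analyses, among them those without either MDA-MB-231 7TGP-NEG library, either MDA-MB-436 7TGP-NEG library or MDA-MB-436 7TGP-POS replicate 2 (adjusted p = 0.0516 to 0.12).

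*FGFR2* (ENSG00000066468, chromosome 10, 123237846 to 123357972, minus strand) is best known as a receptor of epithelial cells, with alternative forms of an immunoglobulin domain that gene-level counts cannot separate. In MDA-MB-436 7TGP-NEG it was at 30.3 and 33.0 CPM in low serum and at 50.6 and 49.4 CPM in standard serum. Reporter-positive MDA-MB-436 held 15.6 and 16.1 CPM in low serum and 36.5 and 33.7 CPM in standard serum. The reporter-positive libraries were lower in both conditions, with a log2 fold change of -1.01 (SE 0.0876, adjusted p = 5.58e-13) in low serum and -0.57 (SE 0.0968, adjusted p = 0.000113) in standard serum. The low-serum value stood at the 2-fold limit of a DEG. MDA-MB-231 held 1 to 4 counts of *FGFR2* per library in low serum, and the ratio of 7TGP-POS to 7TGP-NEG was 1.04 (exact 95% counting interval 0.239 to 4.52). In standard serum it held 0 counts in both 7TGP-NEG libraries, which allows up to 0.0828 and 0.0943 CPM, and 1 and 0 counts in 7TGP-POS, so no change could be measured there at this depth.

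*FGFR3* (ENSG00000068078, chromosome 4, 1795020 to 1810599, plus strand) encodes a receptor kinase recurrently altered in urothelial tumours. In MDA-MB-231 in low serum it fell from 2.64 and 2.84 CPM in 7TGP-NEG to 0.836 and 1.41 CPM in 7TGP-POS. In MDA-MB-436 in low serum it rose from 5.20 and 5.34 CPM to 13.6 and 15.8 CPM. The lines thus moved in opposite directions, and the difference of the changes was -2.75 (SE 0.255, adjusted p = 5.7e-12) on the log2 scale. In standard serum the gene stood at 0.966 and 1.19 CPM in MDA-MB-231 7TGP-NEG and at 0.622 and 0.669 CPM in 7TGP-POS, a log2 fold change of -0.78 (SE 0.302) that did not pass the test (adjusted p = 0.0546). It passed in 6 of 17 alternatives, among them GC offsets (-0.76, adjusted p = 0.0268). MDA-MB-436 went from 3.17 and 3.40 CPM to 4.28 and 6.23 CPM under the same serum, and this rise of 0.61 passed (log2 scale, SE 0.186, adjusted p = 0.0112). The difference of the changes kept its sign there, at -1.39 (SE 0.355, adjusted p = 0.00396), and it passed in all 17 alternatives in both conditions. The standard-serum rise in MDA-MB-436 was not called without 7TGP-NEG replicate 1 (log2 fold change 0.55, adjusted p = 0.105), without 7TGP-NEG replicate 2 (0.65, adjusted p = 0.0557) or without 7TGP-POS replicate 2 (0.33, adjusted p = 0.166), nor by DESeq2, and was 0.78 (adjusted p = 0.000257) with GC offsets.

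*FGFR4* (ENSG00000160867, chromosome 5, 176513906 to 176525145, plus strand) encodes the receptor for the bile-acid hormone FGF19 in liver. In MDA-MB-436 in low serum it was at 20.97 and 22.6 CPM in 7TGP-NEG and at 25.1 and 27.4 CPM in 7TGP-POS, a rise of 0.25 on the log2 scale (SE 0.0819, adjusted p = 0.0084). That call was lost without 7TGP-NEG replicate 1 (0.15, adjusted p = 0.265), without 7TGP-POS replicate 2 (0.21, adjusted p = 0.0859), by DESeq2 and on the TPM scale. In standard serum MDA-MB-436 held 13.1 and 15.1 CPM in 7TGP-NEG and 8.60 and 13.5 CPM in 7TGP-POS, with overlapping groups and a log2 fold change of -0.42 (adjusted p = 0.071). Without 7TGP-POS replicate 2, the higher of those 2 libraries, the value was -0.76 (adjusted p = 0.000262), and with GC offsets it was -0.25 (adjusted p = 0.0641). In MDA-MB-231 the 8 libraries lay between 5.92 and 7.95 CPM, with log2 fold changes of -0.27 (adjusted p = 0.0613) in low serum and -0.25 (adjusted p = 0.389) in standard serum. Without MDA-MB-231 7TGP-POS replicate 2 the low-serum value was -0.38 (adjusted p = 0.0344). The difference of the changes between lines was -0.52 (SE 0.142, adjusted p = 0.00215) in low serum and 0.18 (SE 0.262, adjusted p = 0.651) in standard serum, and the latter reached 0.51 (adjusted p = 0.0311) without MDA-MB-436 7TGP-POS replicate 2.

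*FGFRL1* (ENSG00000127418, chromosome 4, 1003724 to 1020686, plus strand), the kinase-less receptor, fell in reporter-positive cells in all 4 comparisons. In MDA-MB-231 it went from 112 and 114 CPM in 7TGP-NEG to 76.5 and 74.0 CPM in 7TGP-POS in low serum, and from 77.8 and 79.9 CPM to 53.1 and 53.5 CPM in standard serum. In MDA-MB-436 it went from 117 and 117 CPM to 102 and 107 CPM in low serum, and from 105 and 115 CPM to 74.4 and 89.6 CPM in standard serum. No 7TGP-POS library overlapped its 7TGP-NEG group. The log2 fold changes in MDA-MB-231 were -0.58 (SE 0.0515, adjusted p = 2.4e-12) in low serum and -0.62 (SE 0.0854, adjusted p = 1.61e-05) in standard serum. Those in MDA-MB-436 were -0.18 (SE 0.0505, adjusted p = 0.00295) in low serum and -0.48 (SE 0.0838, adjusted p = 0.000115) in standard serum. Each of the 4 calls passed in all 17 alternatives, and none of the values reached the 2-fold limit of a DEG. With GC offsets the standard-serum value in MDA-MB-436 was -0.30 (adjusted p = 0.000624). The low-serum fall was larger in MDA-MB-231 than in MDA-MB-436 by 0.40 on the log2 scale (difference -0.40, SE 0.0721, adjusted p = 1.05e-05), while the standard-serum difference was -0.14 (SE 0.119, adjusted p = 0.386) and reached -0.25 (adjusted p = 0.0387) without MDA-MB-436 7TGP-POS replicate 1 and -0.30 (adjusted p = 0.0107) with GC offsets. The TCF core in the window printed above belongs to this gene, and whether it bears on these values was not tested.

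**Figure D2:**
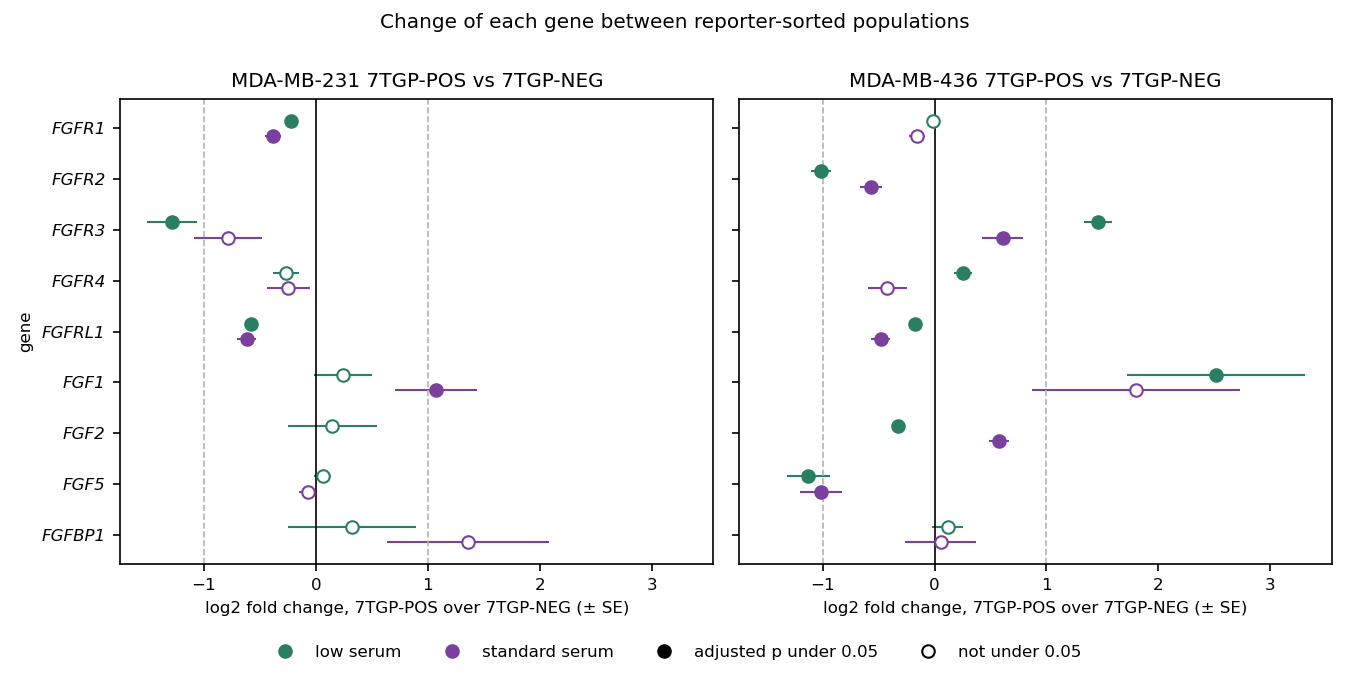
Log2 fold change of 7TGP-POS over 7TGP-NEG, with its standard error, for each gene in MDA-MB-231 (left) and MDA-MB-436 (right); filled points had an adjusted p under 0.05, dashed lines mark a 2-fold change, and genes at or near 0 counts (*FGFR2* in MDA-MB-231, and *FGF2* in MDA-MB-231 in standard serum) are left out. *FGFRL1* lies below 0 in all 4 comparisons and *FGFR3* on opposite sides in the 2 lines.

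The ligands formed a reciprocal pattern between the lines. *FGF2* (ENSG00000138685, chromosome 4, 123747837 to 123819391, plus strand) encodes basic FGF, a heparin-binding ligand without a classical signal peptide. In MDA-MB-436 in low serum it was at 258 and 259 CPM in 7TGP-NEG and at 206 and 209 CPM in 7TGP-POS. In standard serum it was at 103 and 114 CPM in 7TGP-NEG and at 179 and 159 CPM in 7TGP-POS. Reporter-positive cells were therefore lower in low serum (log2 fold change -0.33, SE 0.0483, adjusted p = 2.35e-07) and higher in standard serum (0.58, SE 0.089, adjusted p = 4.53e-05), and each call passed in all 17 alternatives. The difference between those 2 changes was not tested, because serum and library preparation cannot be told apart. With GC offsets the standard-serum rise in MDA-MB-436 was 0.42 (adjusted p = 8.76e-05). MDA-MB-231 held 8 to 10 counts of *FGF2* per library in low serum (log2 fold change 0.15, adjusted p = 0.849) and 0, 0, 0 and 1 counts in standard serum, where no change could be measured.

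*FGF2* overlaps *NUDT6* (chromosome 4, 123809852 to 123844123), which lies on the minus strand and is transcribed from the opposite direction. The strand setting of the authors' counting is not given in the sources used here. *NUDT6* rose in MDA-MB-436 7TGP-POS in low serum, from 5.05 and 4.58 CPM to 6.98 and 6.70 CPM (log2 fold change 0.49, adjusted p = 0.00066), while *FGF2* fell. In standard serum its change there was 0.32 (adjusted p = 0.0836). In MDA-MB-231 *NUDT6* stood at 15.8 to 41.0 CPM in standard serum, in the same libraries that held 0 or 1 counts of *FGF2*.

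*FGF5* (ENSG00000138675, chromosome 4, 81187793 to 81257834, plus strand) encodes a secreted ligand known for ending the growth phase of hair follicles. MDA-MB-231 carried it at 36.3 to 39.1 CPM in low serum and at 53.5 to 55.0 CPM in standard serum, with overlapping reporter groups and log2 fold changes of 0.06 (adjusted p = 0.585) and -0.07 (adjusted p = 0.535). With GC offsets the standard-serum value was -0.21 (adjusted p = 0.0208). In MDA-MB-436 it fell from 3.15 and 3.28 CPM in 7TGP-NEG to 1.04 and 1.97 CPM in 7TGP-POS in low serum (log2 fold change -1.13, SE 0.192, adjusted p = 5.41e-06). Without 7TGP-POS replicate 1 that fall was smaller, at -0.74 (adjusted p = 0.00209). In standard serum MDA-MB-436 went from 1.24 and 1.30 CPM to 0.673 and 0.631 CPM, a log2 fold change of -1.01 (SE 0.188, adjusted p = 0.000205). That value was -1.22 (adjusted p = 4.47e-05) with GC offsets. The change differed between the lines in both conditions, by 1.19 (SE 0.208, adjusted p = 1.02e-05) in low serum and by 0.94 (SE 0.204, adjusted p = 0.00113) in standard serum.

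*FGF1* (ENSG00000113578, chromosome 5, 141971743 to 142077635, minus strand), acidic FGF, can bind every FGF receptor kinase, and it was scarce. MDA-MB-436 7TGP-NEG held 2 and 1 counts in each serum condition, against 10 and 8 counts in 7TGP-POS in low serum and 5 and 8 counts in standard serum. The ratio of 7TGP-POS to 7TGP-NEG was 6.18 (exact 95% counting interval 1.80 to 32.7) in low serum and 3.83 (1.05 to 20.96) in standard serum, intervals that cover counting error only. The fitted test passed in low serum (adjusted p = 0.00736) and not in standard serum (adjusted p = 0.119), and the low-serum call was lost without 7TGP-NEG replicate 2 (adjusted p = 0.0543). In MDA-MB-231 in low serum the groups overlapped, at 1.73 and 1.10 CPM in 7TGP-NEG and 1.54 and 1.80 CPM in 7TGP-POS (log2 fold change 0.24, adjusted p = 0.508). In standard serum *FGF1* rose there, from 0.828 and 0.346 CPM to 1.45 and 1.17 CPM (log2 fold change 1.07, SE 0.366, adjusted p = 0.0311). That value depended on single libraries of 11 to 49 counts. It was 1.87 (adjusted p = 0.00587) without 7TGP-NEG replicate 1 and 0.59 (adjusted p = 0.306) without 7TGP-NEG replicate 2. It was 0.89 (adjusted p = 0.169) and 1.24 (adjusted p = 0.0571) without 7TGP-POS replicate 1 or 2, and 1.06 (adjusted p = 0.0575) without MDA-MB-436 7TGP-NEG replicate 1. The low-serum difference between the lines (adjusted p = 0.0259) passed in 11 of 17 alternatives and was not called without MDA-MB-231 7TGP-NEG replicate 1, either MDA-MB-436 7TGP-NEG library or MDA-MB-436 7TGP-POS replicate 1 (adjusted p = 0.0715 to 0.115).

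*FGFBP1* (ENSG00000137440, chromosome 4, 15937200 to 15940363, minus strand) encodes a secreted carrier that releases FGFs from the extracellular matrix. In MDA-MB-436 in low serum it was at 7.99 and 8.49 CPM in 7TGP-NEG and 9.76 and 8.17 CPM in 7TGP-POS, and in standard serum at 0.80 and 0.766 CPM and at 0.956 and 0.714 CPM. The reporter groups overlapped in both conditions, with log2 fold changes of 0.12 (SE 0.138, adjusted p = 0.51) and 0.05 (SE 0.319, adjusted p = 0.914). In MDA-MB-436 the low-serum and standard-serum levels of this gene did not overlap. Serum and library preparation cannot be told apart, and that difference was not tested. MDA-MB-231 held 2 to 12 counts per library, and in standard serum 14 counts over the 7TGP-POS libraries against 5 over the 7TGP-NEG libraries gave a ratio of 2.74 (exact 95% counting interval 0.932 to 9.71, adjusted p of the fit 0.169).

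The second question was how the lines differed without reporter activity. Between the 7TGP-NEG populations, 7 of the 9 genes were DEGs in low serum, against 41.9% of all genes, and 7 in standard serum, against 46.7%. In standard serum *FGFR2* and *FGF2* passed the filter on low counts only through MDA-MB-436, the line where they were high. Their calls there therefore add no support to that share. *FGFR1*, *FGF1* and *FGF5* were higher in MDA-MB-231 and *FGFR2*, *FGF2* and *FGFBP1* higher in MDA-MB-436 in both conditions. The seventh was *FGFR4* in low serum and *FGFR3* in standard serum, both higher in MDA-MB-436. *FGFR1* was higher in MDA-MB-231 by 1.13 (SE 0.0505, adjusted p = 4.43e-23) and 1.10 (SE 0.0721, adjusted p = 7.9e-11) on the log2 scale. *FGF5* was 12.4-fold higher in low serum (adjusted p = 7.54e-27) and 49.2-fold higher in standard serum (adjusted p = 4.32e-18).

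The genes near 0 in one line set the largest ratios. *FGF2* was 844-fold lower in MDA-MB-231 in low serum by the fitted value, and in standard serum the excess of MDA-MB-436 over a floor of 3 counts per MDA-MB-231 library was at least 1229-fold. *FGFR2* was 383-fold higher in MDA-MB-436 in low serum (exact 95% counting interval 164 to 1181) and at least 565-fold higher in standard serum by the same floor. *FGF1* was 29.0-fold higher in MDA-MB-231 in low serum (exact 95% counting interval 9.59 to 143) and 14.6-fold higher in standard serum (4.67 to 73.9). *FGFBP1* was 30.4-fold lower in MDA-MB-231 in low serum and 10.6-fold higher in MDA-MB-436 in standard serum by summed counts (4.30 to 34.0). *FGFR3* was lower in MDA-MB-231 by -0.84 (adjusted p = 1.18e-05) and -1.40 (adjusted p = 2.3e-05), and *FGFR4* by -1.41 (adjusted p = 5.63e-17) and -0.70 (adjusted p = 0.00483). *FGFRL1* was the most alike, with differences of 0.06 (adjusted p = 0.316) in low serum and -0.27 (adjusted p = 0.00673) in standard serum; the latter was -0.21 (adjusted p = 0.0877) without MDA-MB-436 7TGP-NEG replicate 2.

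Levels were compared between genes on the deposited TPM scale, which corrects for length. In MDA-MB-231 *FGFRL1* was the most abundant of the 9 transcripts in each of the 4 groups, at mean TPM of 39.4 ± 4.01 to 71.4 ± 0.424 (SD, n = 2), followed by *FGFR1* at 24.4 ± 3.11 to 48.3 ± 0.764 and *FGF5* at 13.9 ± 0.806 to 34.1 ± 0.375. In MDA-MB-436 *FGF2* and *FGFRL1* held the first 2 places. *FGF2* led in low serum, at 116 ± 6.59 TPM in 7TGP-NEG against 85.9 ± 4.98 for *FGFRL1*. In standard serum *FGFRL1* led in 7TGP-NEG (96.8 ± 7.08 against 58.7 ± 4.98 TPM for *FGF2*), whereas *FGF2* led in 7TGP-POS (93.7 ± 8.35 against 74.3 ± 9.29 TPM). Among the kinases, *FGFR1* came first in all 8 groups, but in MDA-MB-436 7TGP-NEG in standard serum *FGFR2* stood close to it, at 24.2 ± 0.106 against 25.3 ± 0.0424 TPM. In low-serum MDA-MB-436 7TGP-POS the order of *FGFR2* and *FGFR3* was turned relative to 7TGP-NEG, with *FGFR3* at 7.75 ± 1.34 TPM and *FGFR2* at 5.33 ± 0.488 TPM, against 3.32 ± 0.134 and 12.7 ± 0.00707 TPM. *FGFBP1* and *FGFR1* could not be ordered there, at 16.7 ± 0.955 and 16.5 ± 1.66 TPM.

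The rest of the pathway was described by 85 further genes in 7 lists, of which 76 were tested in each condition. The lists too were chosen with earlier results of these data known. Between reporter states of MDA-MB-231, 36 of the 76 passed the adjusted p in low serum (47.4%, against 38.9% of all genes) and 24 in standard serum (31.6%, against 33.0%). Between those of MDA-MB-436, 40 (52.6%, against 52.0%) and 39 (51.3%, against 49.5%) passed. Apart from the first, these shares lay near the background. DEGs numbered 6 (7.9%, against 5.90% of all genes) and 2 (2.63%, against 7.69%) in MDA-MB-231, and 7 (9.21%, against 10.5%) and 9 (11.8%, against 12.5%) in MDA-MB-436.

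Single heparan sulfate enzymes and core proteins changed. In MDA-MB-231 7TGP-POS in low serum, the glypican *GPC6* rose from 10.0 and 9.45 CPM to 25.5 and 25.9 CPM (log2 fold change 1.41, adjusted p = 1.68e-18) and the syndecan *SDC2* from 18.0 and 17.8 CPM to 37.8 and 38.6 CPM (1.10, adjusted p = 7.89e-17). The 3-O-sulfotransferases *HS3ST3B1* and *HS3ST3A1* rose there by 1.02 (adjusted p = 4.62e-15) and 1.25 (adjusted p = 0.00167). In MDA-MB-436 7TGP-POS, *SULF2*, a sulfatase that edits heparan sulfate outside the cell, rose from 3.18 and 3.42 CPM to 81.0 and 83.0 CPM in low serum (log2 fold change 4.62, adjusted p = 5.14e-33) and from 3.64 and 2.94 CPM to 108 and 112 CPM in standard serum (5.01, adjusted p = 2.8e-10). *FLRT2*, a leucine-rich transmembrane protein, rose by 3.39 (adjusted p = 4.96e-31) and 2.21 (adjusted p = 7.24e-12), and *SDC2* rose in standard serum by 1.14 (adjusted p = 2.81e-09). Of the 15 tested genes of heparan sulfate synthesis and editing, 4 rose and 2 fell in MDA-MB-231 in low serum, 2 and 4 in standard serum, 5 and 3 in low-serum MDA-MB-436, and 4 rose and 4 fell in standard-serum MDA-MB-436, with list medians of -0.04, 0.00, 0.03 and 0.10 against -0.01, 0.00, 0.01 and 0.00 over all genes. The genes that passed were thus 40.0%, 40.0%, 53.3% and 53.3% of that list, beside 38.9%, 33.0%, 52.0% and 49.5% of all genes.

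Among 16 tested FGF-binding proteins and co-receptors, 5 rose and 4 fell in low-serum MDA-MB-231, 2 rose and 3 fell in standard-serum MDA-MB-231, 6 rose and 7 fell in low-serum MDA-MB-436, and 7 rose and 4 fell in standard-serum MDA-MB-436. The medians of that list were 0.015 and 0.034 in MDA-MB-231 and -0.009 and 0.075 in MDA-MB-436. In the order of the counts, 56.25%, 31.25%, 81.25% and 68.75% of the list passed, beside 38.9%, 33.0%, 52.0% and 49.5% of all genes. Of 9 other secreted ligands tested, 0 passed in MDA-MB-231 and in low-serum MDA-MB-436, and 1 rose and 1 fell in standard-serum MDA-MB-436. Of the 4 intracellular FGF homologous factors, which do not activate the receptors, *FGF13* rose in standard-serum MDA-MB-231 7TGP-POS, from 0.138 and 0.0628 CPM to 1.22 and 1.12 CPM (log2 fold change 3.41, adjusted p = 1.42e-06), 1 rose and 1 fell in low serum, and 0 passed in MDA-MB-436. Of 13 adaptors and proximal signalling genes, 1 rose and 5 fell in low serum in each line, while 1 rose and 2 fell in MDA-MB-231 and 3 rose and 3 fell in MDA-MB-436 in standard serum; 0 were DEGs. Of 4 splicing regulators of the receptors, 1 fell in MDA-MB-231 in each condition, and 2 in low serum and 1 in standard serum in MDA-MB-436. *ESRP1*, which promotes the epithelial receptor isoforms, was the DEG among them, in MDA-MB-231 in standard serum (1.10 and 1.19 CPM in 7TGP-NEG, 0.622 and 0.502 CPM in 7TGP-POS, log2 fold change -1.08, adjusted p = 0.013). In the same order of groups, 0%, 0%, 0% and 22.2% of the other ligands passed, and 50%, 25%, 0% and 0% of the homologous factors. For the adaptors the shares were 46.15%, 23.08%, 46.15% and 46.15%, and for the splicing regulators 25%, 25%, 50% and 25%.

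The 15 ERK feedback inhibitors and FGF-responsive factors were next compared between the lines. Between 7TGP-NEG populations, 11 were DEGs higher in MDA-MB-231 in low serum and 10 in standard serum, and 0 were DEGs in the other direction, with list medians of 1.74 and 2.01 against 0.01 and -0.09 over all genes. *DUSP6*, an ERK phosphatase, was at 838 and 877 CPM in MDA-MB-231 and at 8.23 and 8.59 CPM in MDA-MB-436 in low serum (log2 difference 6.78, adjusted p = 1.63e-45), with 7.24 (adjusted p = 1.36e-19) in standard serum. *DUSP4* differed by 5.22 (adjusted p = 8.03e-44) and 5.88 (adjusted p = 1.14e-19), and *SPRY2* by 3.43 (adjusted p = 1.22e-17) in standard serum. The adhesion protein N-cadherin, *CDH2*, which can associate with FGFR1, went the other way, at 218 and 212 CPM in MDA-MB-436 and 0.946 and 0.768 CPM in MDA-MB-231 in low serum (log2 difference -7.86, adjusted p = 4.46e-43). Across all 7 lists, DEGs between the lines made up 43 of 76 genes under low serum (56.6%, against 41.9% of all genes) and 45 of 76 under standard serum (59.2%, against 46.7%).

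The feedback list was also counted between reporter states. In MDA-MB-231 3 rose and 9 fell in low serum and 2 rose and 6 fell in standard serum, with medians of -0.16 and -0.12. In MDA-MB-436 6 rose and 5 fell in low serum and 9 rose and 2 fell in standard serum, with medians of -0.01 and 0.39. In that order 80%, 53.3%, 73.3% and 73.3% of the list passed, beside 38.9%, 33.0%, 52.0% and 49.5% of all genes. *DUSP4* rose in MDA-MB-436 7TGP-POS from 37.3 and 37.1 CPM to 86.1 and 84.6 CPM in low serum (log2 fold change 1.19, adjusted p = 3.37e-21) and by 1.14 in standard serum (adjusted p = 1.2e-09). *SPRY1* rose there in low serum from 6.58 and 6.91 CPM to 16.9 and 19.4 CPM (1.41, adjusted p = 3.96e-17). By the interaction term, the MDA-MB-231 change was the lower one for 6 and the higher one for 3 of the 15 genes in low serum, and the lower one for 9 and the higher one for 0 in standard serum, 60.0% of the list each time beside 45.7% and 41.2% of all genes.

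**Figure D3:**
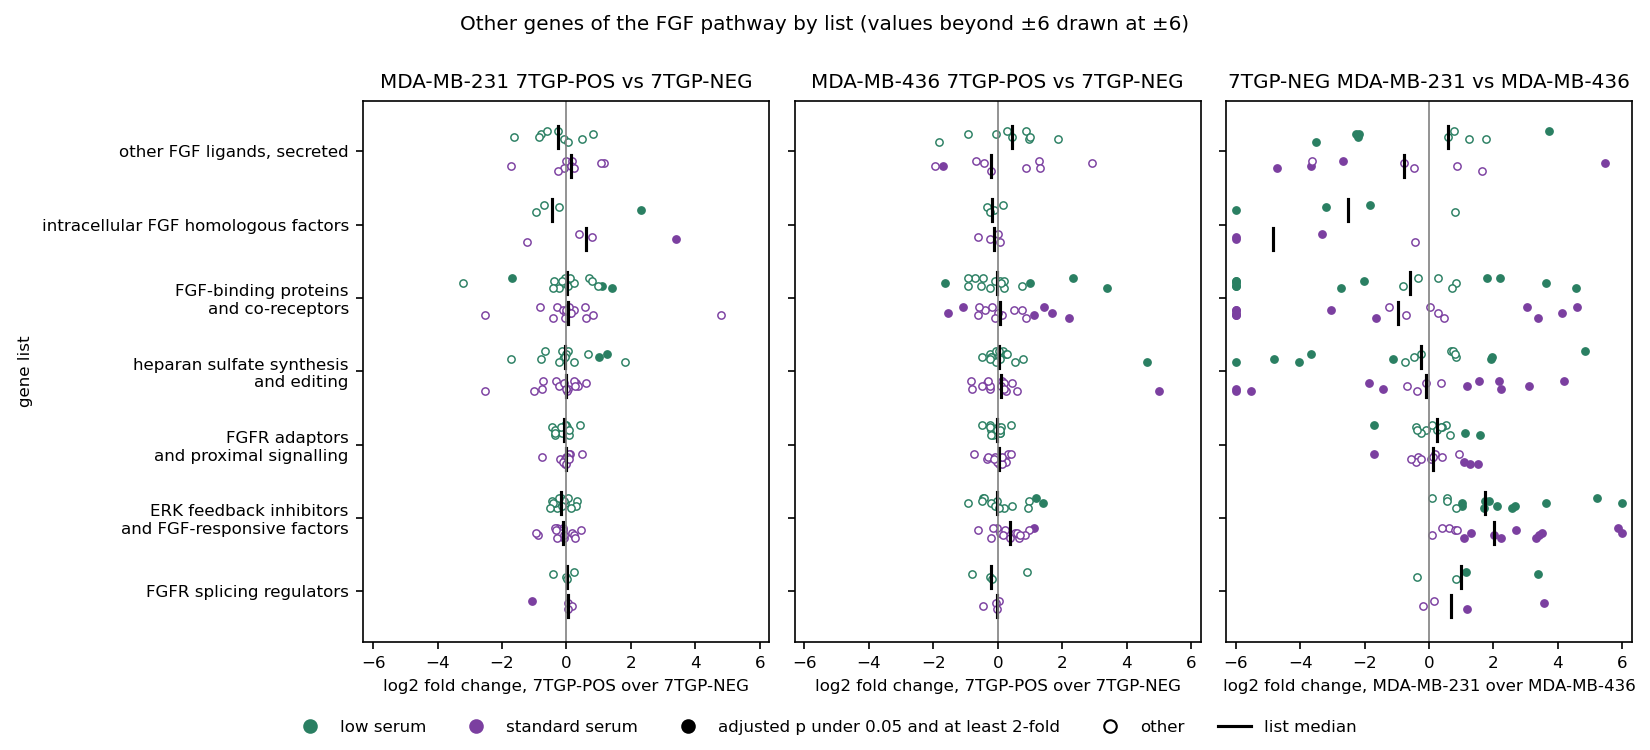
Log2 fold changes of 76 other FGF pathway genes in 7 lists, for the reporter comparison in MDA-MB-231 (left) and MDA-MB-436 (middle) and for the 7TGP-NEG populations of the 2 lines (right); points are genes, filled where they were DEGs, black bars are list medians, and values beyond 6 in size are drawn at 6. The ERK feedback list lies to the right of 0 in the comparison of lines, with medians of 1.74 and 2.01.

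Each change was also set beside the median change of the 50 nearest tested genes whose mean reached 1 CPM. *FGFR3* and *FGFRL1* lie in the same stretch at the start of chromosome 4. In MDA-MB-231 the neighbours of both had a median of -0.10 (low serum) and -0.02 (standard serum), so *FGFR3* stood at -1.18 and -0.77 and *FGFRL1* at -0.48 and -0.60 relative to them. In MDA-MB-436 the neighbours' medians were -0.19 in low serum and -0.32 in standard serum. Relative to them *FGFR3* was higher still, by 1.66 and 0.93, whereas *FGFRL1* was at 0.014 in low serum and -0.16 in standard serum, so its fall in MDA-MB-436 was close to that of its neighbours, of which 40 and 41 of 50 had the same sign. *LETM1*, which adjoins *FGFR3* and was chosen for its position, changed by -0.29 (adjusted p = 1.83e-06) and -0.54 (adjusted p = 4.99e-06) in MDA-MB-436 7TGP-POS. *FGFR4* in MDA-MB-436 lay in a stretch with medians of -0.52 in both conditions, and in low serum 1 of its 50 neighbours shared its sign. In standard serum 43 of 50 shared it, and *FGFR4* stood at 0.10 relative to their median. *FGFR2* and *FGF5* in MDA-MB-436 moved against neighbours' medians of 0.26 and 0.04 (low serum) and of 0.17 and 0.38 (standard serum).

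**Figure D4:**
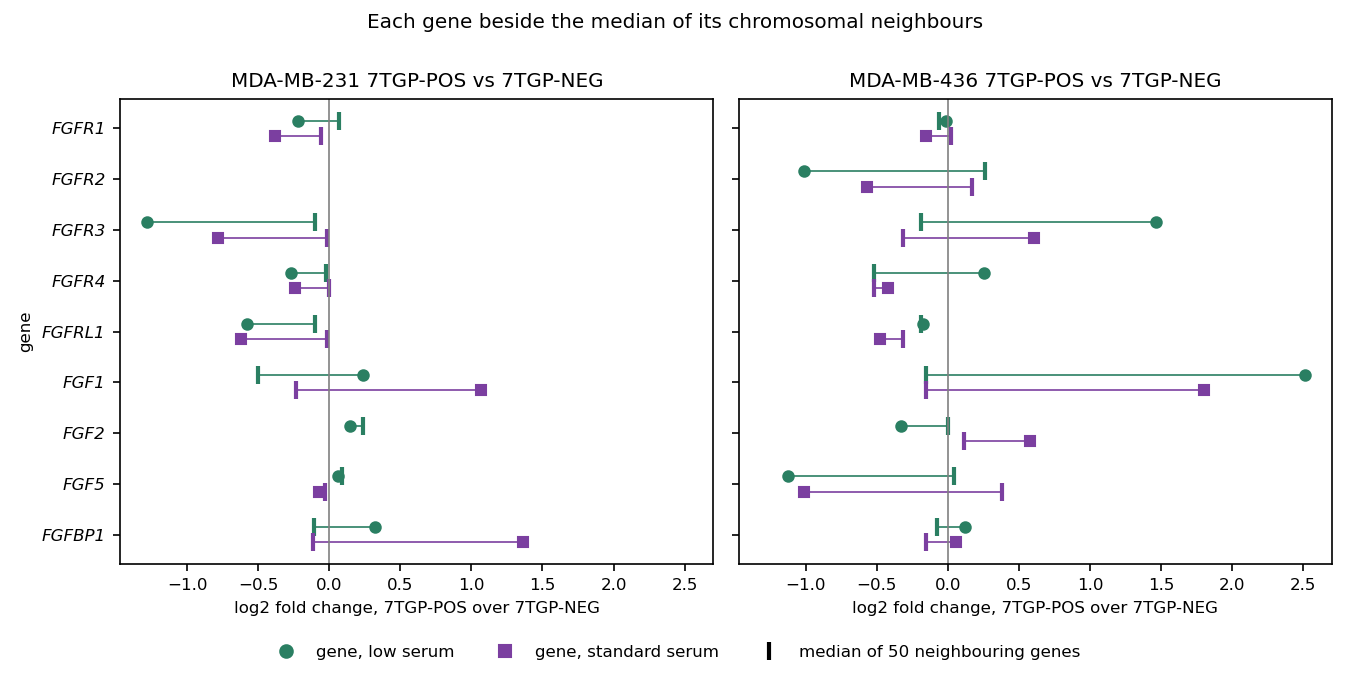
Log2 fold change of each gene (circles for low serum, squares for standard serum) joined to the median of its 50 nearest tested genes on the chromosome (bars), in MDA-MB-231 (left) and MDA-MB-436 (right); genes at or near 0 counts are left out as before. In MDA-MB-436 *FGFRL1* lies close to its neighbours (-0.18 against -0.19 in low serum) and *FGFR3* far above them (1.46 against -0.19).

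Genes with the most similar profile were sought among 12492 protein-coding genes, by the root mean square difference of group-mean log2(CPM + 1) over the 8 groups after centring within each serum condition. Nearest to *FGFR2* were *GPC4* (0.175), *MSC* (0.181) and *SIRPA* (0.216), where the profile of *FGFR2* itself had a root mean square of 2.49. Nearest to *FGF2* were *CDH2* (0.318), *ANPEP* (0.339) and *BHMT2* (0.354), against 3.65 for *FGF2* itself, and nearest to *FGF5* were *ANKFN1* (0.265), *C4BPB* (0.287) and *EHF* (0.287), against 2.14. *FGFR3* was nearest to *STON2* (0.195), *DNAI4* (0.227) and *HCN2* (0.236), against 0.929. For *FGFR1* they were *GATA3* (0.0574), *BRPF3* (0.0603) and *JMJD1C* (0.0676), against 0.431, and for *FGFR4* *FHIP1A* (0.10), *PABPC4* (0.101) and *ADAM11* (0.106), against 0.652. *FGFRL1* was nearest to *NFS1* (0.0567), *MPND* (0.072) and *FBXO44* (0.0735), against 0.313, and *FGFBP1* to *CEBPB* (0.272), *ADAP1* (0.287) and *PTP4A3* (0.303), against 1.06. *FGF1* had a mean under 1 CPM and was not searched. The profiles are dominated by the difference between the lines, and likeness is a description of these 8 groups.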

How the data were processed

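RNA-seq libraries were analysed from 16 samples in 8 groups of 2. Per the labels and the study's methods, the authors aligned reads to hg19 with STAR (2.6.1a in the labels) and deposited raw gene counts on Gencode v19 and TPM values, as one table of each per serum condition; the strand setting of the counting is not given in the sources used here, and the labels name the poly(A) kit for all samples while the methods name it for standard serum only. From the counts, protein-coding genes that reached 10 counts in sum over the 8 low-serum or 8 standard-serum libraries entered the test by edgeR 4.0.16 (TMM, robust quasi-likelihood test, 1 four-group model per condition, Benjamini-Hochberg adjustment) in R 4.3.3. CPM values are counts over the library total. DESeq2 1.42.0 and limma 3.58.1 served as alternatives, the latter on log2(TPM + 1) of the deposited TPM. Intervals and floors cover counting error only. Figures were drawn with matplotlib 3.10.9. Of 57820 gene identifiers, 55538 matched the GENCODE v44lift37 annotation, which gave positions. RefSeq promoter windows matched 8 of the 9 genes. Scripts were tested on simulated counts. The 9 genes and the pathway lists were chosen with earlier results of these data known. Every one of the 9 genes is named; of the list genes, at most 4 DEGs with the smallest adjusted p per comparison, and for each gene whose mean reached 1 CPM the 3 genes of most similar profile. Names of overlapping or adjoining genes were chosen for position. All samples and columns were used.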

Additional observations from a re-analysis of the deposited data

Results flagged for a closer look

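The reporter change differed between the lines, by the interaction term at an adjusted p under 0.05 (edgeR), for *FGFR3* in both conditions (MDA-MB-231 change minus MDA-MB-436 change -2.75 in low serum and -1.39 in standard serum, log2) and for *FGF5* in both (1.19 and 0.94). In low serum it also differed for *FGF1* (-2.27, from 1 to 2 counts per MDA-MB-436 7TGP-NEG library), *FGFR4* (-0.52), *FGFRL1* (-0.40) and *FGFR1* (-0.21). For those 4 genes the standard-serum differences were -0.73, 0.18, -0.14 and -0.23 and did not pass, although of 17 alternatives 0, 1, 3 and 2 called them. *FGF2* in MDA-MB-436 moved in opposite directions in the serum conditions, at -0.33 (low serum) and 0.58 (standard serum), with no overlap between reporter groups in either; the difference between these 2 values was not tested. With 2 libraries per group, single libraries were not examined as outliers.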

How the results depend on the processing

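In each serum condition every gene's change was recomputed under 17 alternatives: other tools, scalings, filters and gene sets, GC offsets, a replicate block, and fits without each of the 8 libraries in turn. Counts of DEGs among the 9 genes changed as follows. On log2(TPM + 1) with limma they were 0 in MDA-MB-231 in both conditions, 2 and 0 in MDA-MB-436 in low and standard serum, and 4 between 7TGP-NEG populations in standard serum, and 5 genes passed the standard-serum difference between lines. DESeq2 gave 0 in MDA-MB-231 in standard serum. With GC offsets 3 were DEGs in low-serum MDA-MB-436, where *FGFR2* was at -0.99, and 3 passed the standard-serum difference between lines, *FGFRL1* being added. With the adjusted p alone the reporter counts were 3, 7, 3 and 5, and with a 2-fold limit the differences between lines numbered 3 and 1. Leaving out 1 library gave 0 to 1 in MDA-MB-231 in each condition, 2 to 4 and 0 to 1 in MDA-MB-436, 4 to 6 and 2 to 4 for the differences between lines, and 7 throughout between 7TGP-NEG populations. The low-serum DEG of MDA-MB-231, *FGFR3*, was lost without 7TGP-POS replicate 1; the standard-serum DEG of MDA-MB-436, *FGF5*, without 7TGP-NEG or 7TGP-POS replicate 2; and the MDA-MB-436 low-serum count fell to 2 without 7TGP-NEG replicate 2. Among values past the threshold in either analysis, 3 directions turned: *FGFRL1* between 7TGP-NEG populations in low serum (-0.34, adjusted p = 0.00745, limma on TPM), *FGF2* in the standard-serum difference between lines (-0.65, adjusted p = 0.00417, limma on TPM, with *FGF2* near 0 in MDA-MB-231) and *FGFRL1* in low-serum MDA-MB-436 after subtracting its neighbours (0.014); a further 26 of 1260 values turned sign without passing in either analysis. In low serum the TPM scale moved the median of all genes by -0.12 in MDA-MB-231, -0.17 in MDA-MB-436 and -0.20 between the lines. The cause of these shifts was not tested. The labels do not say what a replicate number marks, and the numbers were not taken as pairs: across groups the correlation of replicate differences was over 0.1 in 0 of 6 group pairs under low serum (-0.126 to 0.0328) and in 4 of 6 under standard serum (-0.0278 to 0.219). With the replicate block the reporter DEG counts were 1 and 1 in MDA-MB-231 and 4 and 1 in MDA-MB-436 (low and standard serum), as without it, and the fit called *FGFR3* in MDA-MB-231 (-0.79, adjusted p = 0.04) and *FGFR4* in MDA-MB-436 (-0.43, adjusted p = 0.0483) in standard serum. Low counts limit *FGF1* in MDA-MB-436 (1 to 10 per library) and, in MDA-MB-231, *FGFBP1* (2 to 12), *FGFR2* (0 to 4) and *FGF2* (0 to 10).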
